A study of Mus musculus with 119 samples.

Results

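Described here are 9 genes of mature oligodendrocytes and their myelin, Mbp, Mog, Mag, Mobp, Cnp, Cldn11, Opalin, Ugt8a and Mal, out of 55291 genes in each of the 2 deposited count tables. They were taken by symbol, and all 9 were found in both tables. The data are RNA-seq libraries of brain punches from female and male mice given vehicle (ethanol, tween and saline) or delta-9-tetrahydrocannabinol (THC), the main psychoactive compound of cannabis. THC was injected intraperitoneally at 10 mg/kg once a day for 21 days in adolescence, from postnatal day 28 to 48. Vehicle was injected in the same way. By the methods of the study, behavior was tested from postnatal day 63, and brains were taken after the last of these tests. The labels give all mice as C57BL/6J at 11 weeks of age, whereas the methods of the study name C57BL/6NCrl. The regions were the prefrontal cortex (PFC), the dorsal medial striatum (DMS, which the tissue labels call dorsolateral), the nucleus accumbens (NAc), the amygdala (Amy) and the ventral tegmental area (VTA). The 119 libraries made up 20 groups of 1 region, sex and treatment, with 6 libraries in each group and 5 in the VTA of vehicle males. By the methods of the study, the punches of all 5 regions came from the same 24 mice. The labels do not identify the mouse behind a library, so the tests between regions treated punches of one mouse as independent.

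Oligodendrocytes are the glia that wrap axons of the brain and spinal cord with myelin, layers of cell membrane that speed conduction. They arise from dividing precursors that express Pdgfra and Cspg4, and factors such as Olig2, Sox10 and Myrf drive their maturation. White matter tracts hold many of them and cortical grey matter fewer, and myelination continues through adolescence. In RNA from a whole punch, fewer oligodendrocytes and less myelin RNA per cell cannot be told apart.

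The 9 genes act at different places in the sheath. Mbp (myelin basic protein) holds the cytoplasmic faces of compact myelin together, and Mobp is another basic protein of compact myelin. Mog sits on the outer surface of the sheath, and Mag is a sialic acid-binding receptor of the membrane facing the axon. Cnp is a phosphodiesterase of uncompacted myelin, Cldn11 forms tight junctions of the sheath, and Opalin is a membrane glycoprotein of oligodendrocytes. Ugt8a makes galactosylceramide, a main lipid of myelin, and Mal is a proteolipid of lipid-rich membranes. In the annotation used for positions (GENCODE M21, GRCm38), Mobp overlaps Gm38642 on its own strand, so reads could be divided between that pair. Mbp, Mog and Cnp are overlapped by genes on the opposite strand only, and the libraries were stranded.

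Promoters of the 9 genes were searched for the letters of a SOX and a MYRF motif, named after factors of the oligodendrocyte lineage. RefSeq promoters, from 250 bases before to 50 after a start, were given for 8 of the 9 genes. The letters ACAAAG (SOX) occurred on either strand in a promoter of 4 of the 8 genes, Mag, Mobp, Cnp and Opalin, and in 18.7% of all 32851 promoters of this length. The letters CTGGCAC (MYRF) occurred in a promoter of 3 of the 8, Mag, Cnp and Opalin, and in 5.01% of all promoters. TATAAA, the core of the TATA box, occurred in those of 0 of the 8 and in 13.6% of all. Counted by promoter, as the shares are, 5 of 10 promoters of these genes held the SOX letters and 4 of 10 the MYRF letters. Overlapping windows of Mag count more than once in this. The 4 genes with a match are printed 5′ to 3′ on the strand of the gene (RefSeq, GRCm38.p6), with matches on either strand in capitals, and for Mag the first of its starts.
Mag, chr7:30914814-30915113, minus strand: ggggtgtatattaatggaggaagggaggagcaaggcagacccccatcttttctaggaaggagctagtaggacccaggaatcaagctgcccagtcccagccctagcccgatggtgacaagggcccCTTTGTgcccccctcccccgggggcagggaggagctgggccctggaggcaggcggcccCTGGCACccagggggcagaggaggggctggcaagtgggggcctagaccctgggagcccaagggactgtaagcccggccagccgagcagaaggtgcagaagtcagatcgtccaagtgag
Mobp, chr9:120149492-120149791, plus strand: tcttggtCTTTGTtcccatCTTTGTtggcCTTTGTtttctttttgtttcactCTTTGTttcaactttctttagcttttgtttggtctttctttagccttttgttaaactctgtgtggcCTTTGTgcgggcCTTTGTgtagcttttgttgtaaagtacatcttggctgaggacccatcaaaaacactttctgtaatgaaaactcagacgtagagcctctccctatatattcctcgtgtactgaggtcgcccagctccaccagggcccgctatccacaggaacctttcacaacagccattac
Cnp, chr11:100574689-100574988, plus strand: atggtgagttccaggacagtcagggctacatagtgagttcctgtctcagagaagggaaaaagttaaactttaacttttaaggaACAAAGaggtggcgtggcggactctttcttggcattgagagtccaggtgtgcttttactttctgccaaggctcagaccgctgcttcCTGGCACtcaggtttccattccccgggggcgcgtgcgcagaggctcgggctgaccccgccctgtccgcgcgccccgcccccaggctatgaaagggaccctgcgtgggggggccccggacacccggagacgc
Opalin, chr19:41077064-41077363, minus strand: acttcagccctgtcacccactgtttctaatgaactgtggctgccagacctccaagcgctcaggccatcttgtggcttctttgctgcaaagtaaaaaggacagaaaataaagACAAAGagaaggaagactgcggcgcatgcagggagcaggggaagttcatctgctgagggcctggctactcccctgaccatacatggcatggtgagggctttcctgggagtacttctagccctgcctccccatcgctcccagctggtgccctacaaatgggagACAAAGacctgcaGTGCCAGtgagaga
Mobp held the SOX letters 6 times, all as the reverse complement CTTTGT. In Mag and Cnp the MYRF letters began 68 and 81 bases before the start, downstream of the SOX letters. In Opalin 1 SOX match and the MYRF match lay 23 and 36 bases after the start. A match describes the letters of this window and is not a binding site.

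Depth, the sum of counts of a library, was between 17826631 and 25470245 in the table of the PFC and DMS and between 3090998 and 77042133 in that of the NAc, Amy and VTA, with the lowest library among the VTA of vehicle males. Levels are CPM, counts scaled to a common library size with TMM factors over all 119 libraries. Since the PFC and DMS lie in one table and the other regions in the other, region and table cannot be told apart across that divide, and tests between regions were run within a table. The sex-linked counts of 2 Amy libraries, FTL_344 labelled female THC and FTL_356 labelled male THC, went against their labels. Values of the Amy that turn on this pair are also given without it.

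All 9 genes had their highest mean in the VTA, their next highest in the DMS and their lowest in the PFC. Of 18932 genes past the filter on low counts, 31.37% had their highest mean in the VTA and 27.44% their lowest in the PFC. The NAc and Amy lay between the DMS and the PFC in an order that differed from gene to gene.

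Mbp had 1275 ± 283.4 CPM in the PFC (SD, n = 24), from 759.9 over a median of 1231 to 1941. In the DMS it had 2846 ± 262.2 CPM (SD, n = 24), from 2471 over 2799 to 3493. The ranges of the PFC and DMS did not meet. Mbp had 1777 ± 326.7 CPM in the NAc (SD, n = 24), from 1416 over 1698 to 2816, and 1885 ± 663 CPM in the Amy (SD, n = 24), from 799 over 1711 to 3210.5. The Amy thus reached below every NAc library and above all but the highest DMS libraries. In the VTA Mbp had 6634 ± 918 CPM (SD, n = 23), from 4403 over 6632 to 8519, and each VTA library was above each library of the other regions. The same held for the other members except Opalin, for which 22 of 23 VTA libraries lay above all DMS libraries. How many of all genes had no overlap between regions was not counted.

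Levels of different genes were compared per kilobase of exon. In the VTA the highest was Mbp at 783 CPM per kb, followed by Mobp at 337.9 and Cnp at 255 CPM per kb. Mal had 162 CPM per kb, Cldn11 157 and Mag 129.5. Mog was at 87.7 CPM per kb, Ugt8a, the lipid enzyme, at 27.5 and Opalin at 17.1. Basic proteins of compact myelin stood at the top of this order. Exon length here is the union of all annotated exons of a gene.

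**Figure D1:**
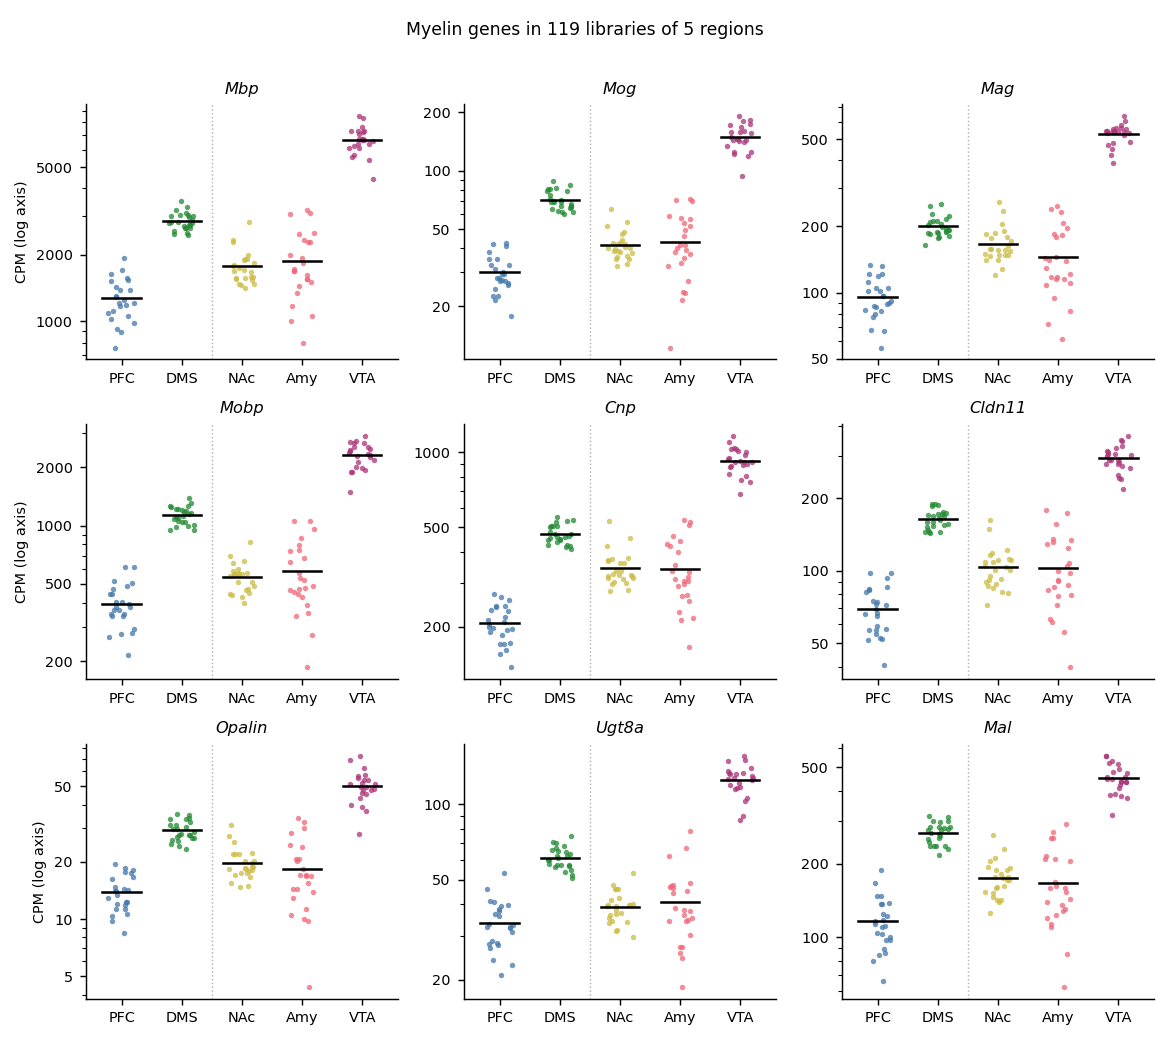
CPM on log axes (y) of the 9 genes in each of 119 libraries by region (x), 1 point per library, with the region mean as a bar and a dotted line between the 2 deposited tables. The VTA mean is highest and the PFC mean lowest for all 9 genes, the lowest VTA library of Opalin lies among those of other regions, and the Amy points scatter over the widest range.

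DMS and PFC were compared by edgeR within their table, with a gene called at an adjusted p under 0.05 and a log2 fold change of at least 0.4 in size. All 9 members were called higher in the DMS, where 26.5% of 17442 genes were called higher. The difference was 1.79-fold for Ugt8a and 2.83-fold for Mobp, the ends of the range, and the median log2 fold change was 1.17, beside a median of 0.02 over all genes. Mobp had 396 ± 102 CPM in the PFC and 1135 ± 120 CPM in the DMS (SD, n = 24 each). Cnp had the smallest p, with a log2 fold change of 1.17 ± 0.06 (SE) and an adjusted p of 1.47e-21. Ugt8a had 33.8 ± 7.62 CPM in the PFC and 61.2 ± 6.2 CPM in the DMS (SD, n = 24 each). It was the only member whose PFC and DMS libraries overlapped, with 22 of 24 DMS libraries above all PFC libraries. The share of all genes with no overlap between these regions was not counted either.

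All 9 members were called higher in the VTA than in the NAc, where 27.5% of 18295 genes were called higher, with log2 fold changes from 1.32 to 2.05. All 9 were also called higher in the VTA than in the Amy, where 23.8% of genes were, with log2 fold changes from 1.45 to 2.02. Mbp differed between the VTA and NAc by a log2 fold change of 1.87 ± 0.10 (SE, adjusted p of 3.87e-26). Mag differed between the VTA and Amy by 1.88 ± 0.10 (SE, adjusted p of 5.28e-26). Opalin and Mal had the smallest difference between the VTA and NAc, a log2 fold change of 1.32 each.

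Between the Amy and NAc, 0 of 9 members were called with edgeR or DESeq2, where 27.6% of all genes were called in either direction. At an unadjusted p under 0.05 stood 1 of 9 with either tool. This was Mag, at 167 ± 31.9 CPM in the NAc and 145 ± 52.6 CPM in the Amy (SD, n = 24 each). Its log2 fold change of -0.25 ± 0.10 (SE) had an adjusted p of 0.0192 and missed the fold threshold. For the other members the log2 fold change lay between -0.17 and 0.03.

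Other genes of the lineage were read from lists. Of 28 further genes of mature oligodendrocytes and myelin, 25 were called higher in the DMS than in the PFC, and 28 of 28 higher in the VTA than in the NAc and in the Amy. Trf, the iron carrier transferrin, had 136 CPM in the PFC and 889 CPM in the VTA. The protease gene Klk6 was the only one of the 28 called between the Amy and NAc, with a log2 fold change of 0.99 ± 0.21 (SE, adjusted p of 2.82e-05).

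Of 9 transcription factors of the lineage, 7 were called higher in the DMS than in the PFC and 8 higher in the VTA than in the NAc and in the Amy. Olig1 had 84.6 CPM in the PFC and 292.2 CPM in the VTA, and Myrf had 28.4 and 122 CPM. Sox8 took another order, with its highest mean in the DMS (78.4 CPM), followed by the NAc (70.4 CPM), VTA (63 CPM), Amy (51.5 CPM) and PFC (32.4 CPM). Of 12 genes of precursors and newly formed oligodendrocytes, 6 were called higher and 1 lower in the DMS than in the PFC, 5 higher in the VTA than in the NAc and 6 higher in the VTA than in the Amy. Pdgfra, the growth factor receptor of precursors, had 64.2 CPM in the NAc and 66.8 CPM in the VTA, at a log2 fold change of 0.02 ± 0.03 (SE, adjusted p of 0.564). Bcas1, a gene of newly formed myelinating cells, had 104.5 CPM in the NAc and 431 CPM in the VTA, at 2.01 ± 0.09 (SE, adjusted p of 5.83e-30).

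Enzymes of cholesterol synthesis, which supply sterol to myelin and other membranes, had a different regional order. Of 12, 0 were called higher and 10 lower in the DMS than in the PFC, where 24.5% of all genes were called lower. Hmgcs1, an early enzyme of the pathway, had 407 CPM in the PFC and 172 CPM in the DMS, at a log2 fold change of -1.26 ± 0.03 (SE, adjusted p of 2.83e-40). In the VTA 10 of the 12 were called higher than in the NAc and 8 higher than in the Amy.

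The members varied more among punches of one region, sex and treatment than most genes did. In the Amy the median SD of log2 CPM within groups was 0.535 for the members and 0.151 for all genes with a mean of at least 5 CPM. In the PFC these medians were 0.336 and 0.0892. The NAc gave 0.210 and 0.107, and the VTA 0.208 and 0.134. The members were most alike among DMS punches, with 0.142 beside 0.106 for all genes. Without FTL_344 and FTL_356 the Amy medians were 0.456 and 0.148. In the PFC, each of the 9 members had a larger spread than at least 96.47% of genes.

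Opalin in the Amy ran from 4.377 over a median of 17 to 33.9 CPM, a 7.75-fold range, and the lowest was 9.741 CPM and the range 3.48-fold without FTL_344 and FTL_356. Mog in the Amy ran from 12.2 over 40.7 to 71.25 CPM, a 5.82-fold range that was 3.31-fold without this pair, whereas in the DMS its highest library was 1.48-fold above the lowest. The lowest Amy library was FTL_356 for all 9 members, 1 of the pair whose sex-linked counts went against the label.

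**Figure D2:**
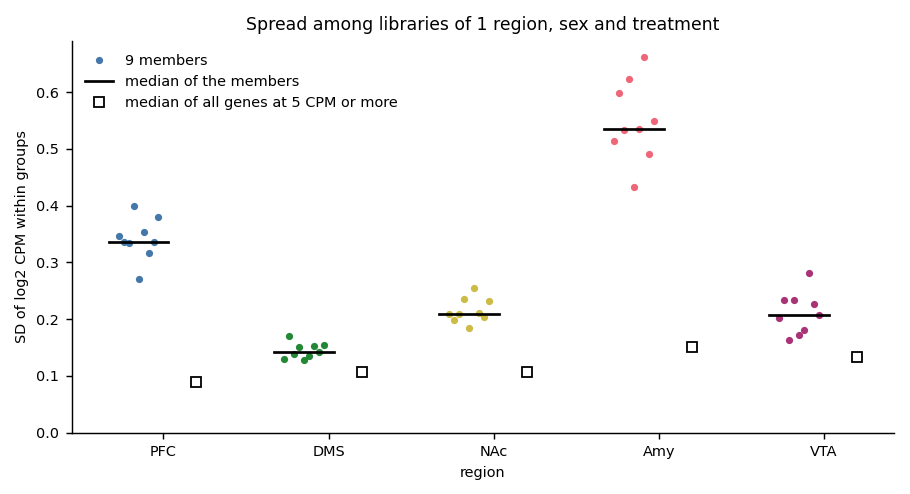
SD of log2 CPM within groups of 1 region, sex and treatment (y) by region (x), with the 9 members as points, their median as a bar and the median of all genes at 5 CPM or more as an open square. All members lie above the square in all 5 regions, farthest in the Amy, where their median is 0.535 against 0.151.

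A library high in one member was high in the others. With group means removed, the 36 pairs of members had a median r of 0.944 over the 119 libraries, from 0.839 to 0.983. Within regions the median r was highest for the Amy (0.974) and PFC (0.947), followed by the NAc (0.899), VTA (0.865) and DMS (0.822). Single pairs went as low as 0.473 in the DMS and 0.662 in the VTA. The first principal component of the standardized values carried 96.68% of the within-group variance of the 9 genes in the Amy and 82.37% in the DMS. Without FTL_344 and FTL_356 the Amy gave a median r of 0.961 and a share of 96.04%. The points share regions, tables and dissections, so these values describe the libraries and carry no test.

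The genes most like the mean of the members, by r of log2 CPM with group means removed over the 119 libraries, were mostly of the same lineage. Of 11940 other genes, Trf (r = 0.971), Lpar1 (0.963), Gatm (0.956) and Fa2h (0.956) were among the closest. Ermn, Tmem88b, Tmem63a, Anln, Plekhb1, Prr18, Evi2a, Gjc3, Bcas1 and Tspan2 were also among the first 15. Lpar1, Gatm, Tmem63a and Prr18 were on none of the lists used here. The median r was 0.926 for the other mature genes, 0.643 for the transcription factors, 0.218 for precursors and newly formed cells, -0.174 for cholesterol enzymes, -0.0927 for neuronal genes and -0.00886 for all genes.

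Mbp was then set against the summed level of marker lists of other cells within each region, to see what else differed between punches with more and less myelin RNA. Pearson's r and Spearman's rho were taken with group means removed and tested by 100000 two-sided permutations within groups, with p adjusted over 110 relations. The smallest p these permutations can give is 1e-05, before adjustment. The 110 relations also hold those of Mbp with the other members and with the oligodendrocyte lists, most of them at that smallest p. They lower the adjusted p of the lists of other cells, and an adjustment over those lists alone was not made.

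In the PFC, Mbp rose with the genes of medium spiny neurons, the projection neurons of the striatum, at r = 0.817 and rho = 0.834 (n = 24, permutation test, adjusted p of 4.78e-05 and 2.75e-05). Without the 2 libraries farthest from the median of Mbp, r was 0.797. These genes summed to between 186 and 549.6 CPM in the PFC and between 5525 and 9369 CPM in the DMS. Neuronal genes as a whole gave r = 0.116 and rho = 0.189 with Mbp in the PFC (permutation test, adjusted p of 0.655 and 0.445).

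In the VTA, Mbp fell as the genes of thalamus and hypothalamus rose, at r = -0.843 and rho = -0.799 (n = 23, permutation test, adjusted p of 6.87e-05 and 0.000157). Without the 2 farthest libraries r was -0.741. Most of that sum was 1 gene, the glutamate transporter Slc17a6, at a mean of 220.8 CPM in the VTA. Over the 119 libraries, r with the mean of the members was -0.224 for Slc17a6 and 0.412 for Tcf7l2 of the same list. Whether the relation came from thalamus or hypothalamus in the punches was not tested. Mbp also fell as choroid plexus genes rose in the VTA, at r = -0.691 and rho = -0.566 (permutation test, adjusted p of 0.005 and 0.0214), and rose with microglial genes, at r = 0.706 and rho = 0.523 (permutation test, adjusted p of 0.00994 and 0.0468), with r at -0.53 and 0.405 without the 2 farthest libraries. Dopaminergic neuron genes, which define the VTA, summed to between 1153 and 4073 CPM there and to at most 56.8 CPM elsewhere. Their relation to Mbp in the VTA was r = 0.448 and rho = 0.332 (permutation test, adjusted p of 0.167 and 0.217).

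In the Amy, Mbp fell as cortical projection neuron genes rose, at r = -0.673 and rho = -0.588 (n = 24, permutation test, adjusted p of 0.00322 and 0.0113), and r was -0.515 without the 2 farthest libraries. It rose with endothelial genes, at r = 0.724 and rho = 0.777 (permutation test, adjusted p of 0.000132 and 7.17e-05), and r was 0.639 without them. With microglial genes it gave r = 0.618 and rho = 0.623 (permutation test, adjusted p of 0.0161 and 0.00713), and r = 0.44 without them. Without FTL_344 and FTL_356 instead, r was -0.532 with cortical projection neuron genes, 0.726 with endothelial and 0.504 with microglial genes (permutation test, adjusted p of 0.0331, 0.00266 and 0.0552 over 14 relations). The oligodendrocyte lists were among these 14. In the NAc, Mbp fell as neuronal genes rose, at r = -0.573 and rho = -0.511 (n = 24, permutation test, adjusted p of 0.0153 and 0.0257), with r at -0.481 without the 2 farthest libraries. It rose with dopaminergic neuron genes in the NAc, at r = 0.67 and rho = 0.621 (permutation test, adjusted p of 0.00169 and 0.00713), with r at 0.528 without them. In the PFC the same list gave r = 0.635 and rho = 0.599 (permutation test, adjusted p of 0.00535 and 0.00906), with r at 0.448 without the 2 farthest libraries. The Amy gave r = 0.526 and rho = 0.423 (permutation test, adjusted p of 0.0225 and 0.0855), and the DMS r = -0.231 and rho = -0.221 (permutation test, adjusted p of 0.409 and 0.4). In the DMS, medium spiny neuron genes gave r = 0.370 and rho = 0.390 (n = 24, permutation test, adjusted p of 0.23 and 0.156). Mbp fell there as genes of Schwann cells of peripheral nerve rose, at r = -0.534 and rho = -0.518 (permutation test, adjusted p of 0.0185 and 0.0214). This list gave r = -0.534 and rho = -0.556 in the PFC (permutation test, adjusted p of 0.0112 and 0.0152). Of the 5 genes of this list only Drp2 reached a mean of 5 CPM, so the sum rests largely on genes with few counts. Drp2 had r = 0.00582 with the mean of the members over the 119 libraries. The part of the dissection in these relations was not tested.

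**Figure D3:**
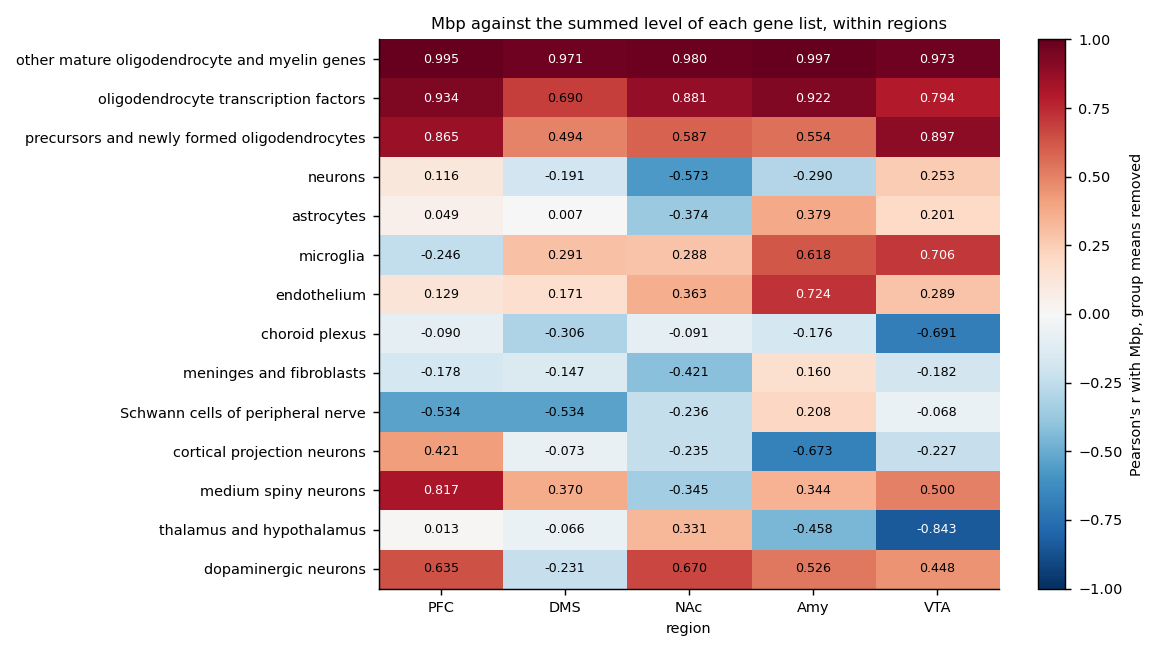
Pearson's r of Mbp with the summed level of each gene list (rows) in each region (columns), over 24 libraries per region and 23 in the VTA, with group means removed; red is positive and blue negative. The 3 oligodendrocyte lists are positive in all 5 regions, medium spiny neurons reach 0.817 in the PFC, and thalamus and hypothalamus reach -0.843 in the VTA. Most of the latter sum in the VTA is Slc17a6.

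THC was compared with vehicle in each region and sex, the comparison the study was built for. None of the 9 members was called in any of the 10 comparisons, with edgeR or with DESeq2. Of all genes, edgeR called 1.57% in the female Amy, 0.0127% in the female DMS and 0% in the other 8 groups. At an unadjusted p under 0.05 stood 2 members in the female Amy and 1 in the female DMS with edgeR, and with DESeq2 also 1 in the female NAc. With edgeR, 21.9% of all genes in the female Amy and 8.9% in the female DMS stood there, so these counts of members were near the background. In 0 of 90 pairs of a member and a group were the THC and vehicle libraries without overlap. The share of all genes without overlap was not counted.

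The female Amy held the largest differences. Mbp had 1002 CPM in the lowest, 1871 in the median and 3090 in the highest of the vehicle libraries, and 1060.5, 1426 and 1933 CPM in the THC libraries. Mog had 21.5, 45.4 and 71.25 CPM with vehicle and 23.4, 29.5 and 41.3 CPM with THC. For both genes the THC libraries lay inside the vehicle range, in its lower part. All 9 log2 fold changes were negative, from -0.56 to -0.37 with a median of -0.41, beside a median of -0.01 over all genes. Mog had the smallest p, with a log2 fold change of -0.56 ± 0.24 (SE) and an adjusted p of 0.202. The adjusted p of the 9 members ran from 0.202 to 0.388.

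Leaving out 1 female Amy library at a time moved the median of the members between -0.56, without the vehicle library FTL_337, and -0.25, without the vehicle library FTL_334. These were the lowest and the highest vehicle library for all 9 members. Without FTL_344, whose sex-linked counts went against the label, Mog had a log2 fold change of -0.57 with an adjusted p of 0.284. No member was called in any of these fits.

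Further genes of the lineage leaned the same way in the female Amy. All 28 other mature oligodendrocyte genes had a negative log2 fold change, with a median of -0.36 and 0 of 28 called, and 7 at an unadjusted p under 0.05, beside 21.9% of all genes. These genes follow the members from punch to punch, so their signs are not independent of those of the members. Of the 9 transcription factors 1 was called, beside 1.57% of all genes called in either direction. This was Nkx6-2, a homeobox factor of oligodendrocytes that was singled out after its value was seen. Nkx6-2 had 24.7, 29.6 and 38.3 CPM with vehicle and 13.5, 16.1 and 20.5 CPM with THC (lowest, median and highest). Its log2 fold change was -0.88 ± 0.12 (SE, adjusted p of 0.00648). Of 12 genes of precursors and newly formed cells 0 were called, with 3 at an unadjusted p under 0.05, near the same share.

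Neuronal genes also differed between these libraries. The list of neuronal genes as a whole summed to between 3828 and 5296 CPM with vehicle and between 5207.5 and 5986 CPM with THC. Of 6 cortical projection neuron genes, Slc17a7, Tbr1 and Neurod6 were called higher with THC, where 186 of 17003 genes were called higher. The list summed to between 505 and 746 CPM with vehicle and between 795 and 1137 CPM with THC. Medium spiny neuron genes summed to between 275.7 and 604 CPM with vehicle and between 563 and 909 CPM with THC, with 0 of 7 called. Genes of thalamus and hypothalamus summed to between 38.2 and 107.6 CPM with vehicle and between 31 and 67.8 CPM with THC. Depth was between 13018420 and 46044478 counts with vehicle and between 20341366 and 76111373 counts with THC. The part of these differences in the values of the myelin genes was not tested.

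In the male Amy, Mbp had 1562, 2064 and 3077 CPM with vehicle and 799, 1977 and 3210.5 CPM with THC. The THC libraries extended beyond the vehicle libraries at both ends. The 9 log2 fold changes were between -0.17 and -0.07 with an adjusted p of 1 for each. Without FTL_356, the lowest library, the median of the members went from -0.13 to 0.06, so its sign rests on that library.

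**Figure D4:**
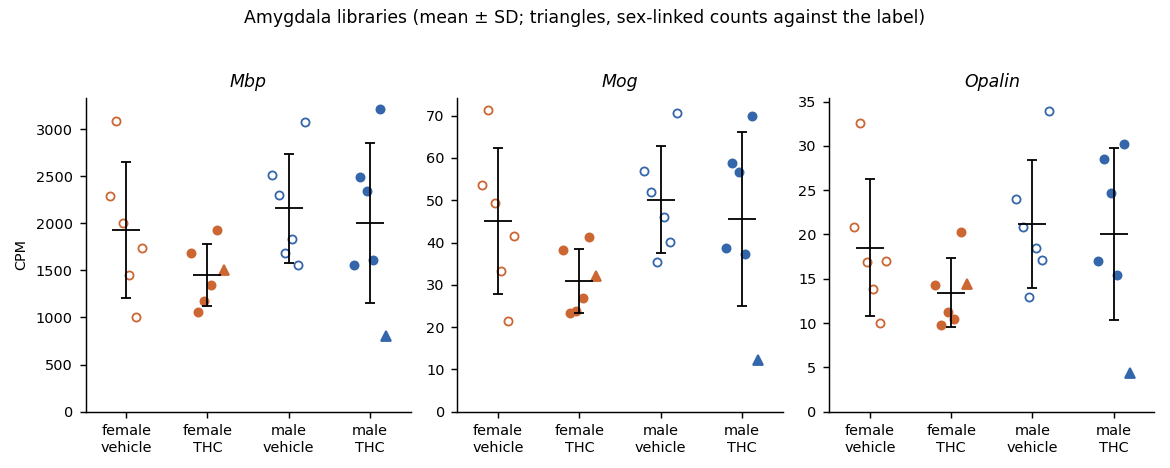
CPM (y) of Mbp, Mog and Opalin in the Amy libraries by sex and treatment (x), 1 symbol per library with the mean ± SD; open circles are vehicle, filled symbols THC, and triangles the 2 libraries whose sex-linked counts went against the label. Female THC libraries of Mbp and Mog sit in the lower part of the female vehicle range, 1 of Opalin lies just below it, and the male THC triangle is the lowest library in all 3 panels.

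Elsewhere the differences were small. In the female DMS, Mag had 185.4, 219 and 254 CPM with vehicle and 181, 189 and 196 CPM with THC. The lowest vehicle libraries lay inside the THC range, and the log2 fold change was -0.21 ± 0.07 (SE) with an adjusted p of 0.354. In the male NAc the members were between -0.23 and -0.09, with Mog at -0.23 ± 0.12 (SE, adjusted p of 0.364). Their median of -0.17 was -0.07 without the vehicle library FTL_323 and -0.25 without the THC library FTL_328. In the same male NAc libraries all 7 medium spiny neuron genes had a positive log2 fold change, with a median of 0.37 and 0 called, and the part of this in the myelin values was not tested. The female NAc gave -0.17 to -0.05, the female PFC -0.16 to 0.01, the male PFC -0.12 to -0.00 and the male DMS -0.05 to 0.01. In the VTA, 3 of 9 members were above 0 in females (-0.11 to 0.13) and 9 of 9 in males (0.01 to 0.17). The male median of 0.11 was -0.00 without the vehicle library FTL_371, which had the lowest depth of all, 3090998 counts. By the methods of the study, a male VTA sample was removed as an outlier, whereas all 119 libraries were used here.

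All 9 members were lower with THC by log2 fold change in 6 of the 10 groups and higher in 1, none of them called. Since the members follow each other from punch to punch, their 9 signs within a group are not independent. With both sexes in 1 fit, 0 of 9 members were called in any region, and 0% of all genes in each. The median log2 fold change of the members was -0.27 for the Amy, -0.15 for the NAc, -0.06 for both the PFC and DMS and 0.02 for the VTA. Without FTL_344 and FTL_356 the Amy median was -0.19. Mog in the NAc had the smallest p, at -0.18 ± 0.08 (SE, adjusted p of 0.453). In the NAc 1 member stood at an unadjusted p under 0.05 with edgeR and 4 with DESeq2, and in the other regions none with either.

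**Figure D5:**
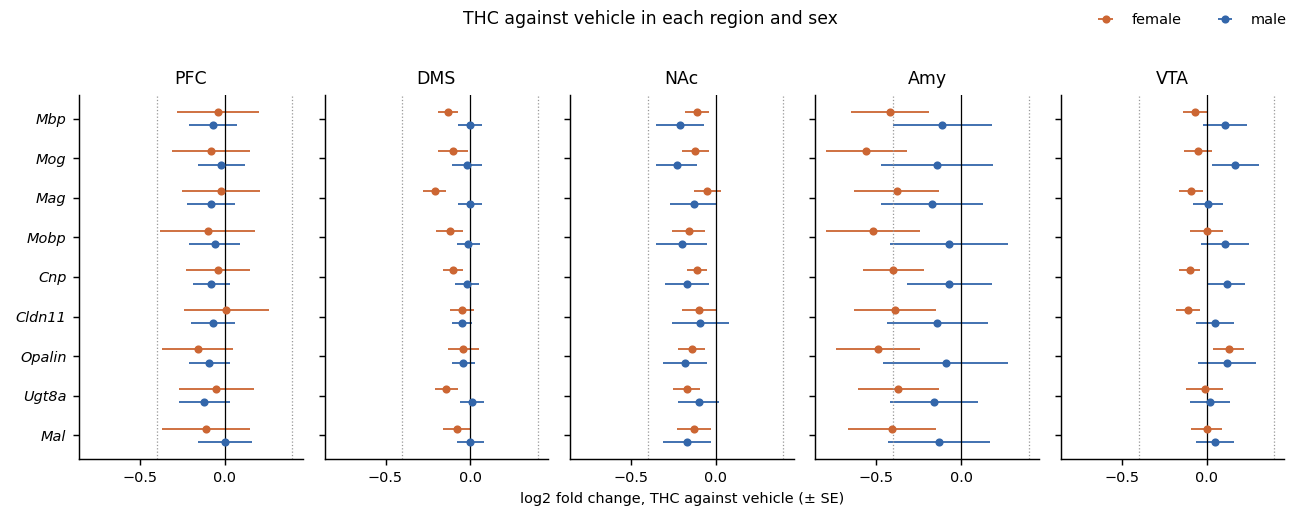
Log2 fold change of THC against vehicle ± SE (x) for the 9 members (y) in each region, females in orange and males in blue, with dotted lines at 0.4 to either side. Female Amy values lie farthest from 0, between -0.56 and -0.37, and the other groups lie between -0.23 and 0.17.

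The effect of sex on the THC difference was tested as an interaction, coded as the male minus the female log2 fold change. None of the 9 members was called in any region, beside 0.0059% of all genes in the Amy and 0% in the others. No member stood at an unadjusted p under 0.05 with edgeR, and 1 did with DESeq2, in the DMS. In the Amy the 9 terms were between 0.21 and 0.45, with the smallest p for Cnp, at 0.33 ± 0.33 (SE), so that the error was as large as the term. Their median was 0.31, and 0.48 without FTL_344 and FTL_356. Nkx6-2 had a log2 fold change of 0.10 in the male Amy and an interaction term of 0.98 (adjusted p of 0.235), so its difference in females was not shown to differ from that in males.

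Males were compared with females with treatment as a covariate. None of the 9 members was called in any region, with edgeR or DESeq2, beside 2.64% of genes (DMS), 0.243% (NAc), 0.24% (PFC), 0.109% (VTA) and 0.012% (Amy). In the NAc all 9 were higher in males, with log2 fold changes from 0.08 to 0.33 and a median of 0.24. There 7 of 9 stood at an unadjusted p under 0.05 with edgeR and with DESeq2, beside 16.6% of all genes with edgeR.

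Opalin in the NAc had 14.8, 17.8 and 22.3 CPM in female and 17.4, 21.1 and 31.2 CPM in male libraries (lowest, median and highest). Its log2 fold change was 0.33 ± 0.08 (SE) with an adjusted p of 0.0273. Mag had 120.5, 148 and 179 CPM in females and 148, 181 and 258 CPM in males, at 0.32 ± 0.08 (SE) with an adjusted p of 0.0369. Both passed the threshold on the adjusted p and missed that on the fold, and the sexes overlapped for both. All 28 other mature genes were also higher in males in the NAc by log2 fold change, 19 at an unadjusted p under 0.05 and 0 called. The members and these genes follow each other from punch to punch (median r of 0.926), so neither count is of independent genes.

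In the DMS, Opalin had 23.3, 26.9 and 33.6 CPM in females and 26.8, 31 and 35.8 CPM in males, at a log2 fold change of 0.20 ± 0.06 (SE, adjusted p of 0.0245). The other members were between -0.06 and 0.05 there. In the VTA the members were between 0.01 and 0.23, in the Amy between 0.11 and 0.39 and in the PFC between -0.15 and 0.17, with no adjusted p under 0.05. At an unadjusted p under 0.05 stood 1 member in the DMS and 1 in the VTA, Opalin in both, with edgeR.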

How the data were processed

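Libraries were stranded and made from polyadenylated RNA. Per the labels and the study's methods, the authors trimmed reads with cutadapt 2.9, aligned them with STAR 2.7.3a to mm10 and counted genes with RSEM 1.3.1, so the deposited values are expected counts per gene, not normalized. The annotation release is not given in the sources used here. Expected counts split reads shared between genes by estimate, and they were rounded to whole numbers here.

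Genes were filtered with filterByExpr, scaled by TMM and tested with edgeR 4.0.16 (quasi-likelihood F test, robust) in R 4.3.3, with p adjusted by Benjamini-Hochberg over all genes tested. Calls needed an adjusted p under 0.05 and a log2 fold change of 0.4 or more in size. Each THC comparison was fitted on the 2 groups of its region and sex, and the pooled, interaction and sex fits used all 4 groups of a region. Labels mark libraries by number and not by mouse, so p-values measure the spread between these samples. The SE of an edgeR log2 fold change is its size divided by the square root of the F statistic. Log2 CPM used a prior count of 2. DESeq2 1.42.0, its size factors in edgeR, no filter, 1 fit of 4 groups, and leaving out each library were tried as alternatives. The tests were checked on simulated counts.

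The members and lists were chosen with earlier results of these data known, and the genes named are the members, genes among the 15 most alike and examples of the lists. Some items are not reported here. Intervals of counting error are not given, since the spread between libraries exceeds it. No promoter was printed for Mbp.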

Additional observations from a re-analysis of the deposited data

Results flagged for a closer look

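In 180 groups of a member, a library was marked when its gap to the nearest other library, divided by the range of the group, passed Dixon's critical value. Chance marks about 1 in 20 groups, here 9, and 3 were marked. Mag in the VTA of vehicle females had 451 CPM in FTL_360 and 521 to 563 CPM in the others, a ratio of 0.627. Opalin in the VTA of THC males had 72.5 CPM in FTL_379 and 51.1 to 57.5 CPM in the others, a ratio of 0.703. Ugt8a in the DMS of THC males had 51.1 CPM in FTL_303 and 60 to 64.4 CPM in the others, a ratio of 0.668.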

How the results depend on the processing

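No paired analysis was possible because the labels give each library a number of its own and none for the mouse. The regions share the 24 mice, so the p-values between regions ignore that sharing. DESeq2, its size factors in edgeR, no filter on low counts, 1 fit over the 4 groups of a region, vehicle libraries only for the regions, and the Amy without FTL_344 and FTL_356 left the number of members called at 9 in the DMS against PFC, VTA against NAc and VTA against Amy comparisons and at 0 in all others. Leaving out 1 library at a time in the DMS, NAc, Amy and VTA (95 fits, not run in the PFC) called 0 members. It turned the sign of the members' median log2 fold change in 4 groups, none with a member called: the male DMS (-0.01, range -0.05 to 0.03, positive without FTL_297), the male Amy (-0.13, range -0.30 to 0.06, positive without FTL_356), the female VTA (-0.05, range -0.09 to 0.01, positive without FTL_357) and the male VTA (0.11, range -0.00 to 0.21, at -0.00 without FTL_371). In other groups the median kept its sign, with ranges of -0.15 to -0.06 in the female DMS, -0.15 to -0.07 in the female NAc, -0.25 to -0.07 in the male NAc and -0.56 to -0.25 in the female Amy. The lowest adjusted p of a member in these fits was 0.0756, for Mog in the female Amy without FTL_337. Without FTL_344 and FTL_356 the median sex difference in the Amy was 0.36. DESeq2 called 544 genes in the female Amy, where edgeR called 1.57% of 17003. Nkx6-2 in the female Amy, left out library by library as a choice made after seeing the data, stayed called, with log2 fold changes from -0.96 to -0.79. The spread and relations of the Amy without FTL_344 and FTL_356 were added after seeing the data. In the Amy, where the spread among punches was widest, differences of the size seen carried errors of 0.18 to 0.28 (log2, SE) in females.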
